A study of Homo sapiens with 6 samples.

Results

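The genes described here encode the machinery that brings proteins into mitochondria, folds them and degrades them, measured as messenger RNA in HEK-293T cells with and without a guide against C17orf80. They were chosen by name: of 53 gene symbols in the count files that begin with TOMM, TIMM or SAMM, the 27 protein-coding ones were kept, and 23 further genes for chaperones, processing peptidases and proteases were added. The 26 symbols left out were pseudogenes and noncoding genes, among them the read-through TIMM23B-AGAP6. This gave 50 genes of the 62348 identifiers in the files. The control group was 3 libraries of HEK-293T cells, an embryonic kidney line carrying the SV40 large T antigen, labelled WT and given a non-targeting guide RNA. The other group was 3 libraries labelled C17orf80 knockout, made by CRISPR/Cas9 with a guide against C17orf80, for which puromycin had been used to select monoclonal cells. This group is called knockout-labelled below. Neither the number of clones nor the cultures behind the 3 libraries of a group are stated in any source used here. Each p-value thus covers the spread between these libraries alone, which may be technical, and clone and guide cannot be told apart.

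Nearly all mitochondrial proteins are made in the cytosol from nuclear genes and carry a targeting signal. Precursors cross the outer membrane through the TOM complex, are sorted by the SAM complex, the small TIM chaperones or the TIM22 and TIM23 complexes, and are pulled into the matrix by a motor built on the chaperone mtHsp70. There presequences are cut off, Hsp60 and Hsp10 help the proteins fold, and a set of proteases in the matrix, the inner membrane and the intermembrane space removes damaged or unassembled ones. The study's title asks about transcription of mitochondrial DNA, whose products are assembled together with these imported proteins.

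Libraries were made from poly(A) RNA. Gene counts per library ranged from 14982340 to 16278091, and levels below are CPM, counts scaled to library sizes adjusted by TMM, a scaling that equalises most genes between libraries. The C17orf80 transcript (now named MTNAP1) was examined as a check of the labels. It was not lower but higher in knockout-labelled libraries, at 56.4, 42.4 and 41.96 CPM in replicates 1 to 3, than in WT, at 25.8, 26.8 and 29.2 CPM (log2 fold change 0.78 ± 0.17, standard error, knockout-labelled over WT, edgeR adjusted p = 0.0232). The level of this transcript thus does not verify the knockout. The cut site within the gene is not given in the labels, and the level of the whole transcript does not check the reading frame. Of the markers fixed for HEK-293 cells, KRT8, KRT18, VIM, CDH2 and PAX2 were present in each library. PTPRC, HBB and TYR had 0 counts in all 6, ALB and PECAM1 had at most 4 counts, ACTA2 was near 1 CPM, and the collagen gene COL1A1 was at 46.9, 41.9 and 40.5 CPM in WT and 18.2, 29.1 and 25.97 CPM in knockout-labelled libraries. Markers thus moved with the comparison: COL1A1 was called lower (-0.82 ± 0.20, edgeR adjusted p = 0.0350), and CDH2, a cadherin, was called higher, at 111, 80.4 and 87.3 CPM against 38.6, 36.5 and 39.7 CPM in WT (1.28 ± 0.16, edgeR adjusted p = 0.00395). The 7 markers of other lineages summed to 42.1 to 48.1 CPM in WT and 19.8 to 30.1 CPM in knockout-labelled libraries, a sum made almost wholly of COL1A1. Of the other HEK-293 markers, PAX2 was lower without overlap. It was at 9.43, 8.08 and 9.25 CPM in WT and 3.7, 6.92 and 5.95 CPM in knockout-labelled libraries. PAX2 (-0.69 ± 0.26), KRT8 (0.50 ± 0.23), KRT18 and VIM did not pass edgeR over all 6 libraries. Without replicate 1 labelled knockout, edgeR called PAX2 lower (-0.46, adjusted p = 0.0415) and KRT8 higher (0.72, adjusted p = 2.37e-07). KRT18 and VIM did not pass there either. The part of these markers in the results below was not tested. Replicate 1 labelled knockout stood apart: on log2 CPM over genes its Pearson correlations with the other 2 of its group were 0.932 and 0.945. Those 2 correlated at 0.987 with each other and at 0.939 to 0.942 with WT libraries, and WT libraries at 0.988 with each other. Replicate 1 labelled knockout correlated with WT libraries at 0.876 to 0.881. Mitochondrially encoded genes took 11.9% of its gene counts against 4.53% to 5.00% in the other 5 libraries. The members called over all 6 libraries and several other genes are given with and without it.

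Of the 50 genes, 47 had enough counts to be tested, 3 rose, 0 fell and 44 did not pass. Those that rose were AFG3L2, a subunit of the inner membrane m-AAA protease, TOMM70, a receptor of the outer membrane, and HSPD1, the matrix chaperonin Hsp60. The test was edgeR's quasi-likelihood test with Benjamini-Hochberg adjustment over 17452 genes at 0.05, and it called 15.1% of all genes, 8.64% higher and 6.5% lower, so the 3 of 47 (6.38%) were fewer than that background. At an unadjusted edgeR p under 0.05 there were 7 higher and 2 lower members, beside 18.2% and 15% of all genes. DESeq2 called 5 higher, adding TOMM20 and CLPB, and 1 lower, IMMP2L, where it called 13.4% and 10.7% of all genes. The median log2 fold change over the tested members, labelled knockout over WT, was -0.048, beside 0.0055 over all tested genes. In whole-culture RNA, fewer cells with a transcript and less RNA per cell cannot be told apart.

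Without replicate 1 labelled knockout, 11 members were called higher and 8 lower of the 47 (40.4%), where edgeR called 44% of all genes, 22.3% higher and 21.7% lower. The 3 members called over all 6 libraries were among the 11. The others that rose in this comparison were TOMM20, TOMM40, TIMM17A, HSPA9, GRPEL1, HSPE1, TRAP1 and CLPB. Those that fell were TOMM22, TOMM34, SAMM50, TIMM44, PMPCB, MIPEP, IMMP2L and SPG7. Counted by levels alone over all 6 libraries, 10 members had each knockout-labelled library above each WT library and 9 had each below. Over all tested genes those shares were 23.5% and 24.1%, against 21.3% and 19.1% of the members. With WT replicate 1, 2 or 3 left out, edgeR called 0 members, and 3.63%, 3.69% and 3.54% of all genes.

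**Figure D1:**
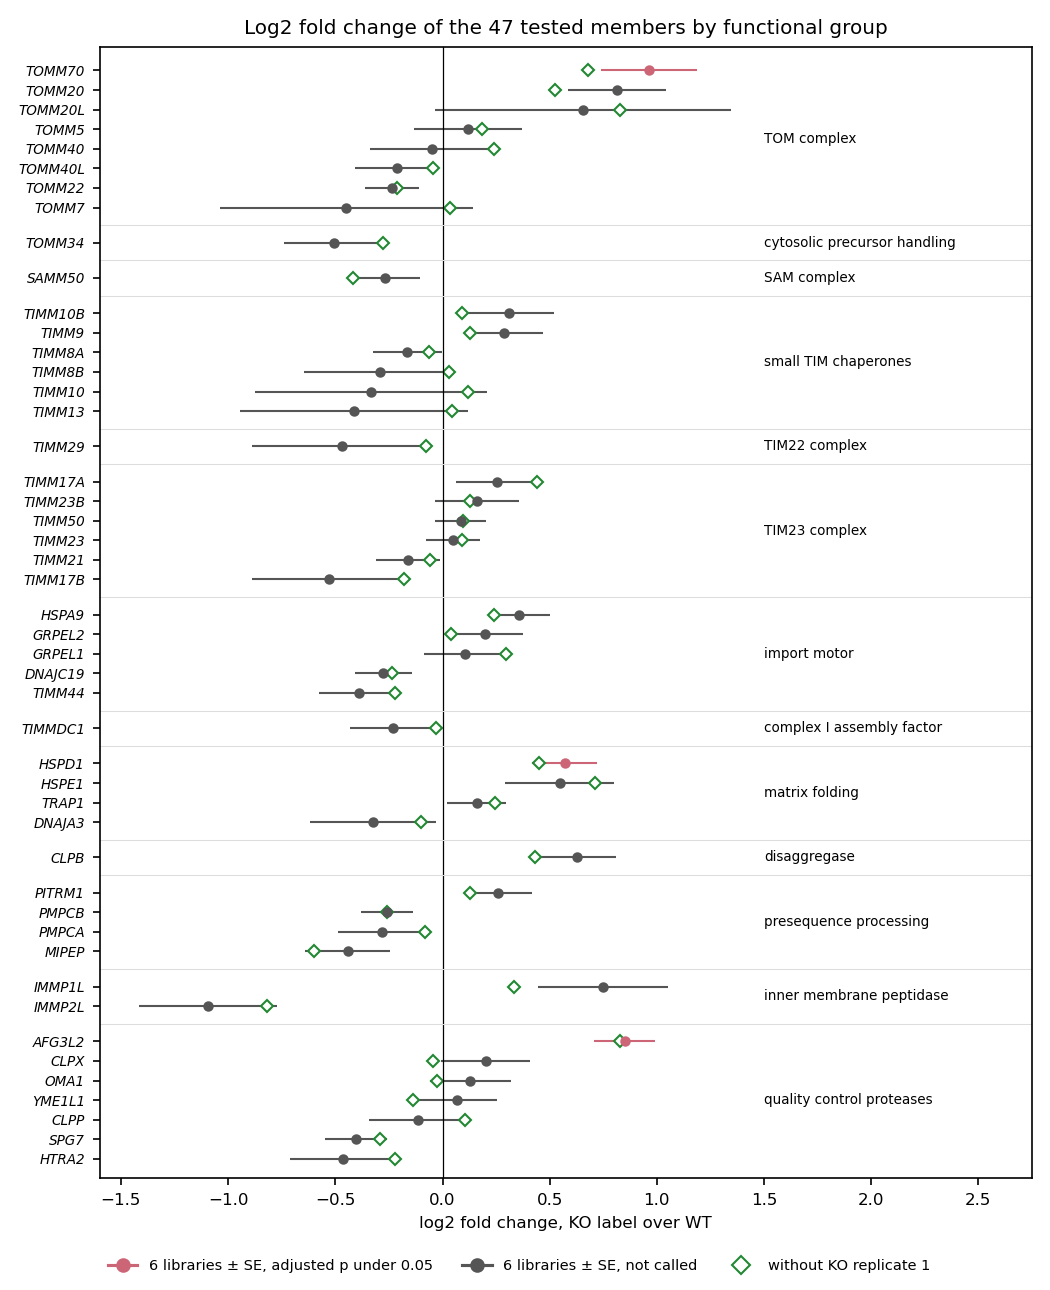
Log2 fold change (x axis, labelled knockout over WT) of each of the 47 tested members (y axis), grouped by function. Circles are the edgeR values over 6 libraries with standard errors, red where the adjusted p was under 0.05, and open diamonds are the values without replicate 1 labelled knockout. TOMM70, HSPD1 and AFG3L2 are the 3 called members, and members of the same complex lie on both sides of 0.

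The proteases of mitochondrial quality control included the member with the smallest p of the whole set. AFG3L2 forms the m-AAA protease of the inner membrane, alone or together with SPG7 (paraplegin), and degrades membrane proteins on the matrix side. AFG3L2 (ENSG00000141385, chromosome 18, positions 12328944 to 12377227 on GRCh38) was at 34.5, 31.8 and 38.7 CPM in WT replicates 1 to 3 and at 65.8, 64.9 and 58.5 CPM in replicates 1 to 3 labelled knockout. The groups did not overlap, and here replicate 1 labelled knockout lay beside replicate 2 rather than apart. The means were 35.01 ± 3.47 CPM in WT and 63.1 ± 4.001 CPM in knockout-labelled libraries (SD, n = 3), a log2 fold change of 0.85 ± 0.14 (standard error) with an edgeR adjusted p of 0.0106. Without replicate 1 labelled knockout the log2 fold change was 0.83 (edgeR adjusted p = 9.3e-08). Leaving out WT replicate 1, 2 or 3 raised the edgeR adjusted p to 0.0810, 0.0799 and 0.0543, at log2 fold changes of 0.83, 0.78 and 0.92. The span of AFG3L2 shares 883 of its 48284 bases with TUBB6, and strand was not stated for the counts. TUBB6 had 866 counts in replicate 1 labelled knockout and 1801 to 1892 in the other libraries.

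SPG7, the partner of AFG3L2 in the hetero-oligomeric m-AAA protease, had the opposite sign. It was at 163, 181 and 169 CPM in WT and 110.2, 140.5 and 137 CPM in knockout-labelled libraries, so that each knockout-labelled library lay below each WT library. Its log2 fold change was -0.40 ± 0.15 and did not pass over all 6 libraries (edgeR adjusted p = 0.102). Without replicate 1 labelled knockout it was called lower (-0.29, edgeR adjusted p = 0.00107). Because a ratio of counts within a library does not depend on library scaling, the AFG3L2 to SPG7 count ratio was compared directly: it was 0.211, 0.176 and 0.229 in WT and 0.597, 0.462 and 0.426 in knockout-labelled libraries. This is a 2.40-fold higher ratio, with a log2 difference of 1.26, or 1.12 if replicate 1 labelled knockout is left out. The two-sided exact permutation p was 0.1, the smallest that 3 against 3 libraries can give, and 0.267 after adjustment over the 8 ratios compared, so the difference did not pass. Counts were not corrected for transcript length, so the ratio shows a shift between groups and not which transcript is more abundant.

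The annotated start regions of both genes are shown as those of the m-AAA subunits, whose transcripts had opposite signs. Each window runs from 250 bases before to 50 bases after the RefSeq start (GRCh38.p14), 5′ to 3′ on the gene's strand, and capitals mark matches to the searched motifs. AFG3L2 is chr18:12377178-12377477 on the minus strand and SPG7 is chr16:89508138-89508437 on the plus strand, the first of its 2 listed windows.
AFG3L2: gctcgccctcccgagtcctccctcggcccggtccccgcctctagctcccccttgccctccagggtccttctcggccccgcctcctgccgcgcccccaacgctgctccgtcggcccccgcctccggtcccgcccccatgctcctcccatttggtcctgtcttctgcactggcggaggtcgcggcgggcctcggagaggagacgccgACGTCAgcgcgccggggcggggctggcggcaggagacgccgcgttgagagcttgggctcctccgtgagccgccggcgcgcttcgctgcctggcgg
SPG7: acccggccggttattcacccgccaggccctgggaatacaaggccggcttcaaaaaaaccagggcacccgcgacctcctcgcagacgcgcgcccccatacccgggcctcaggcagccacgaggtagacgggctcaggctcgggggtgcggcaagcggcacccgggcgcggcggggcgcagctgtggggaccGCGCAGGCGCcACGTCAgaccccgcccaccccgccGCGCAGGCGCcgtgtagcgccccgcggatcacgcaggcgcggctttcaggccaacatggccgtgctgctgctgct
Both windows held the letters of a cAMP response element core (TGACGT, here on the reverse strand), at positions 206 to 211 of the AFG3L2 window and 202 to 207 of the SPG7 window, which 8.94% of protein-coding windows also hold. The SPG7 window held 2 matches to the NRF1 core (GCGC and GCGC with any 2 bases between) at positions 191 to 200 and 226 to 235, whereas the AFG3L2 window held none of these letters.

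The other proteases did not pass over all 6 libraries. CLPP, the proteolytic core of the matrix ClpXP protease, was at 126, 116 and 118 CPM in WT and 75.1, 140.4 and 117 CPM in knockout-labelled libraries. Its unfoldase CLPX was at 70.6, 68.6 and 67.9 CPM in WT and 105, 63.8 and 69.1 CPM in knockout-labelled libraries. In both genes it was replicate 1 labelled knockout that lay outside the WT range by the widest margin, low for CLPP and high for CLPX. YME1L1, the i-AAA protease facing the intermembrane space, had a log2 fold change of 0.07 ± 0.19, and OMA1, a stress-activated inner membrane protease, of 0.13 ± 0.19. HTRA2, a serine protease of the intermembrane space, was at 24.6, 24.6 and 22.8 CPM in WT and lower in each knockout-labelled library, at 11.2, 21.9 and 19.1 CPM (-0.46 ± 0.25, edgeR adjusted p = 0.232). Without replicate 1 labelled knockout the log2 fold change of HTRA2 was -0.22 (edgeR adjusted p = 0.115). The span of HTRA2 overlaps AUP1 and LOXL3. LONP1, the main ATP-dependent protease of the matrix, is outside the name rule but belongs to the same pathway. It fell, from 419, 403 and 403 CPM in WT to 119, 254 and 213 CPM (-1.07 ± 0.26, edgeR adjusted p = 0.0374), and without replicate 1 labelled knockout at -0.80 (edgeR adjusted p = 1e-09). The edgeR adjusted p of LONP1 was 0.126 to 0.136 on leaving out 1 WT library and 0.0889 without replicate 3 labelled knockout.

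**Figure D2:**
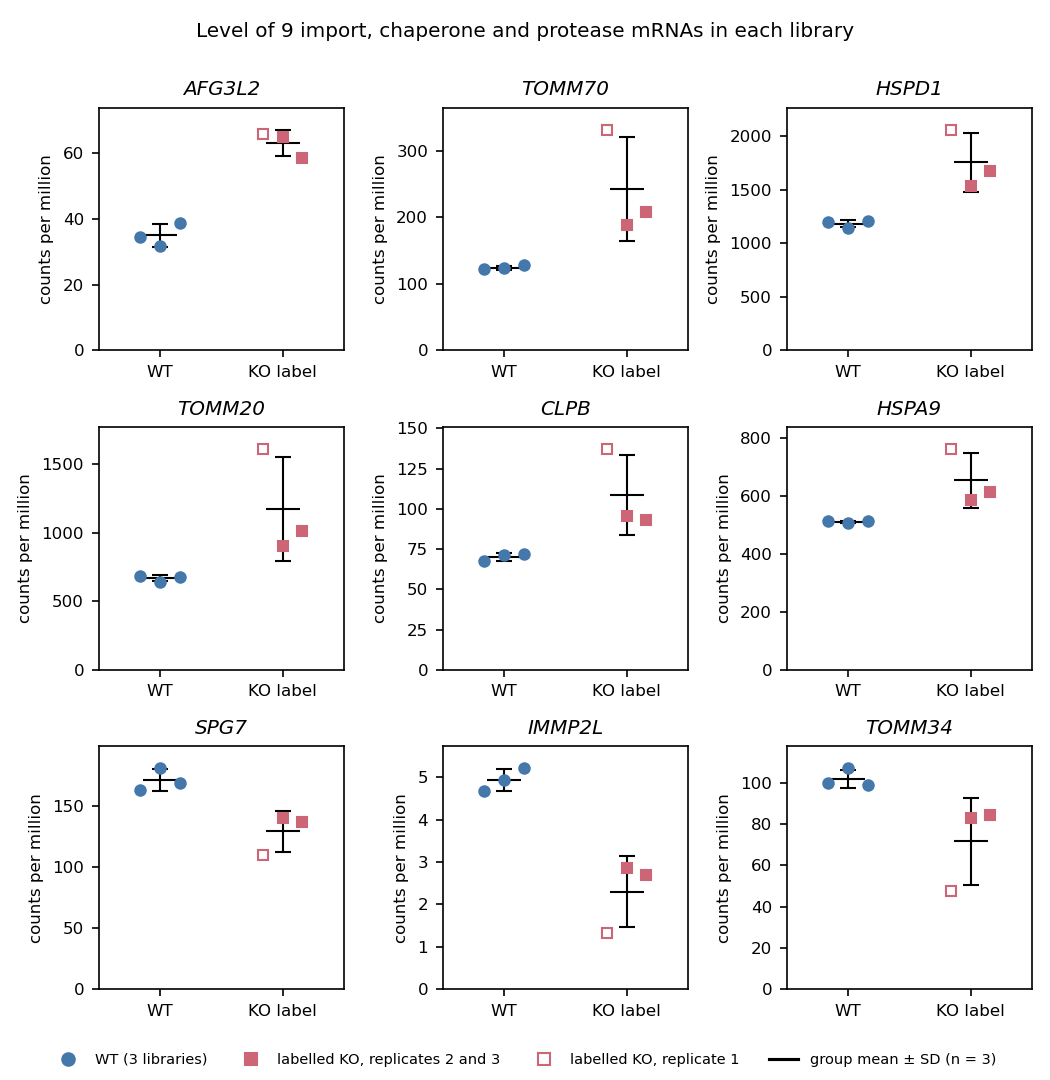
Level in CPM (y axes, each from 0) of 9 members in the 3 WT libraries (circles) and the 3 knockout-labelled libraries (squares, replicate 1 open), with bars for the group mean and SD. AFG3L2, TOMM70, HSPD1, TOMM20, CLPB and HSPA9 lie higher and SPG7, IMMP2L and TOMM34 lower in each knockout-labelled library than in each WT library, and replicate 1 is the most distant from WT in each panel. All 9 were picked from the 19 of 47 tested members without overlap (40.4%), beside 47.6% of all tested genes. Members that overlap between the groups are not shown.

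In the TOM complex, 1 of 8 tested genes rose, 0 fell and 7 did not pass, near the 8.64% of all genes called higher. TOMM70, the receptor for precursors of carrier proteins and a docking site for cytosolic Hsp70 and Hsp90, was at 122, 124 and 128 CPM in WT and 332, 189 and 208 CPM in replicates 1 to 3 labelled knockout. Each knockout-labelled library was above each WT library, replicate 1 by the most. The log2 fold change of TOMM70 (ENSG00000154174, chromosome 3, positions 100363431 to 100401089) was 0.96 ± 0.22 (edgeR adjusted p = 0.0307). It was 0.68 without replicate 1 labelled knockout (edgeR adjusted p = 1.26e-08). The edgeR adjusted p was 0.126 to 0.135 on leaving out 1 WT library and 0.0591 without replicate 3 labelled knockout. TOMM20, the receptor that binds presequences, was at 682, 643 and 676 CPM in WT and 1609.6, 901 and 1010.5 CPM in knockout-labelled libraries, again without overlap. Its log2 fold change of 0.81 ± 0.23 lay just outside the threshold (edgeR adjusted p = 0.0524), and was 0.53 without replicate 1 labelled knockout (edgeR adjusted p = 4.07e-08).

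The third receptor subunit, TOMM22, which links the receptors to the channel, differed in sign. It was at 98.1, 95.4 and 93.002 CPM in WT and 79.1, 86.6 and 77.5 CPM in knockout-labelled libraries (-0.24 ± 0.13, edgeR adjusted p = 0.229). TOMM40, the channel itself, was at 182, 164 and 164 CPM in WT and 93.6, 218 and 182 CPM in knockout-labelled libraries. Replicate 1 lay far below and replicate 2 above the WT range. The log2 fold change of TOMM40 was -0.048 with that library and 0.24 without it (edgeR adjusted p = 0.0108). TOMM7, a small subunit, was at 29.7, 31.1 and 30.9 CPM in WT and 4.73, 37.2 and 25.01 CPM in knockout-labelled libraries, so its wide spread there came from replicate 1. TOMM5 stayed between 2.76 and 4.25 CPM in all 6 libraries. TOMM40L, a paralog of TOMM40, and TOMM20L, a paralog of TOMM20, had log2 fold changes of -0.21 ± 0.20 and 0.66 ± 0.69. TOMM20L had 1, 12 and 12 counts in WT, too few for a stable value. TOMM6 had 0 counts in each library and was not tested.

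The start region of TOMM70 (chr3:100401040-100401339, minus strand, same window as above) is shown as that of the receptor that rose, with matches to the ETS core bound by GABPA (CCGGAAG, either strand) in capitals.
TOMM70: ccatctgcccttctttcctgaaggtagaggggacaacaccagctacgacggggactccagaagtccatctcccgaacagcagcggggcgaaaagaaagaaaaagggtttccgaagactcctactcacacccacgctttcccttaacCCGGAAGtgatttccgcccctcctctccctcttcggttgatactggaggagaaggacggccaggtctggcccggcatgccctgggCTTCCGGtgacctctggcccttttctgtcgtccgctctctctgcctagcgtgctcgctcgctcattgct
The matches lie at positions 147 to 153 and, on the reverse strand, 232 to 238. Over the import set as a whole, windows were listed for 45 of the 50 genes (52 windows), and 17 windows (32.7%) held this core, against 12.8% of 22199 protein-coding windows of the same length. The NRF1 core was in 14 member windows (26.9%) against 10.6%, and the YY1 core (AAGATGGC) in 5 (9.62%) against 3.53%. Some windows overlap, and the 14 with the NRF1 core belong to 13 genes. Both SPG7 windows hold the same matches, and the first HSPD1 window and the HSPE1 window hold the same match in a shared stretch. The CCAAT box (CCAAT) was in 18 (34.6%) against 34.7%, the cAMP response element core in 6 (11.5%) against 8.94% and the C/EBP-ATF element (TGATGNAA) in 2 (3.85%) against 2.69%. Both strands were searched, and a match describes the letters only. Of the factors themselves, YY1 rose, from 248, 237 and 239.9 CPM in WT to 429, 338 and 339.8 CPM in knockout-labelled libraries (0.61 ± 0.14, edgeR adjusted p = 0.0320, and 0.143, 0.151 and 0.156 without WT replicate 1, 2 or 3). NRF1 (0.15 ± 0.17) and GABPA (0.026 ± 0.23) did not pass. GABPA turned sign without replicate 1 labelled knockout and was then called lower (-0.26, edgeR adjusted p = 0.00691).

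Outer membrane sorting and the cytosolic partner had values below WT in replicates 2 and 3. SAMM50, the channel of the SAM complex that inserts beta-barrel proteins, was at 88.5, 85.5 and 85.7 CPM in WT and 86.8, 65.6 and 63.5 CPM in knockout-labelled libraries. Here replicate 1 lay within the WT range and replicates 2 and 3 below it, for a log2 fold change of -0.27 ± 0.16 over all libraries (edgeR adjusted p = 0.283) and -0.42 without replicate 1 (edgeR adjusted p = 7.56e-05). TOMM34, a cytosolic co-chaperone of Hsp70 and Hsp90 despite its symbol, was at 99.7, 107 and 99.1 CPM in WT and 47.5, 83.2 and 84.4 CPM in knockout-labelled libraries, without overlap (-0.51 ± 0.23, edgeR adjusted p = 0.169).

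None of the 6 small TIM chaperones, which escort hydrophobic precursors across the intermembrane space, passed edgeR over all 6 libraries, at an unadjusted p under 0.05, or without replicate 1 labelled knockout. DESeq2 called 0 as well. For comparison, edgeR called 15.1% of all genes, and 44% once replicate 1 labelled knockout was dropped. At the unadjusted p, 18.2% of all genes were higher and 15% lower, and DESeq2 called 13.4% higher and 10.7% lower. Whether these 6 genes differ from those shares was not tested. TIMM13, which pairs with TIMM8A or TIMM8B, was at 86.5, 75.8 and 79.8 CPM in WT and 16.05, 92.1 and 73.3 CPM in knockout-labelled libraries. TIMM10, the partner of TIMM9, was at 16.4, 18.2 and 12.1 CPM in WT and 3.25, 19.2 and 14.5 CPM. In both, replicate 1 was far below every other library. TIMM9, the member of this group with the smallest p, was at 16.3, 16.7 and 18.1 CPM in WT and 25.4, 18.8 and 18.3 CPM in knockout-labelled libraries (0.29 ± 0.18, edgeR adjusted p = 0.302), highest in replicate 1. TIMM10B was likewise highest in replicate 1, at 34.98 CPM against 19.5 to 23.5 in WT. Log2 fold changes of TIMM8A and TIMM8B were -0.16 ± 0.16 and -0.29 ± 0.35. TIMM29, a subunit of the TIM22 complex that inserts carrier proteins, was at 36.9, 29.9 and 36.02 CPM in WT and 9.54, 34.96 and 29.7 CPM in knockout-labelled libraries (-0.47 ± 0.42, edgeR adjusted p = 0.464). Without replicate 1 labelled knockout the log2 fold change of TIMM29 was -0.075 (edgeR adjusted p = 0.605). TIMM22 itself had 0 to 3 counts per library and was not tested.

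In the TIM23 complex, the gate for presequence-bearing proteins, 0 of 6 genes passed edgeR over all libraries, at an unadjusted p under 0.05, or in DESeq2. Of all genes, edgeR called 15.1%, and 18.2% were higher and 15% lower at the unadjusted p. DESeq2 called 13.4% of all genes higher and 10.7% lower, so zeros among so few genes do not set this complex apart. The channel subunit TIMM23 was at 65.1, 60.8 and 61.3 CPM in WT and 61.4, 66.4 and 65.9 CPM in knockout-labelled libraries, and the receptor TIMM50 at 147, 146 and 150.1 CPM in WT and 156, 164 and 149.7 CPM. These differences were within the standard error of the fold change, at 0.05 ± 0.13 and 0.085 ± 0.12 on the log2 scale. TIMM23B, a nearly identical copy of TIMM23, was at 6.76, 7.36 and 7.11 CPM in WT and 8.36, 6.62 and 8.78 CPM, and how reads were divided between these copies is uncertain. The paralogs TIMM17A and TIMM17B, alternative partners of TIMM23, had opposite signs. TIMM17A was at 87.001, 79.9 and 78.2 CPM in WT and 72.3, 106 and 115 CPM in knockout-labelled libraries, and TIMM17B at 66.1, 59.8 and 61.9 CPM in WT and 19.8, 56.3 and 53.7 CPM. Their log2 fold changes were 0.26 ± 0.19 and -0.53 ± 0.36 (edgeR adjusted p = 0.384 and 0.333), and TIMM17A was called higher without replicate 1 (0.44, edgeR adjusted p = 4.03e-05). Without that library TIMM17B was at -0.18 and did not pass (edgeR adjusted p = 0.0822). The TIMM17A to TIMM17B count ratio was 1.32, 1.34 and 1.26 in WT and 3.65, 1.88 and 2.13 in knockout-labelled libraries, without overlap, 1.87-fold higher (exact permutation p = 0.1, adjusted p = 0.267). The log2 difference was 0.91, and 0.62 without replicate 1. TIMM21 had a log2 fold change of -0.16 ± 0.15. TIMMDC1 carries the TIMM symbol but encodes an assembly factor of respiratory complex I, and was at 119.6, 113 and 117 CPM in WT and 71.1, 112 and 115 CPM in knockout-labelled libraries (-0.23 ± 0.20, edgeR adjusted p = 0.450).

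In the import motor 0 of 5 tested genes passed edgeR over all libraries, and 1 (HSPA9) was higher at an unadjusted p under 0.05, which 18.2% of all genes were. DESeq2 called 0 of them. Of all genes, edgeR called 15.1%, and DESeq2 called 13.4% higher and 10.7% lower. HSPA9 (mtHsp70), its central chaperone, was at 513, 507 and 513 CPM in WT and 762, 586 and 613 CPM in knockout-labelled libraries, each above each WT library, for a fold change on the log2 scale of 0.35 ± 0.14 (edgeR adjusted p = 0.136). Without replicate 1 labelled knockout HSPA9 was called, at 0.24 (edgeR adjusted p = 0.000836). TIMM44, which tethers the motor to the channel, was at 114, 116 and 114 CPM in WT and 66.4, 105 and 90.1 CPM in knockout-labelled libraries, each below each WT library (-0.39 ± 0.18, edgeR adjusted p = 0.185). The J-protein DNAJC19 was also lower in each, at 28.1, 29.3 and 30.9 CPM against 35.05, 34.2 and 37.7 CPM in WT (-0.28 ± 0.13, edgeR adjusted p = 0.189). The nucleotide exchange factors GRPEL1 and GRPEL2 overlapped between the groups, with log2 fold changes of 0.11 ± 0.20 and 0.20 ± 0.18. PAM16, the other J-like subunit, had 0 to 8 counts per library and was not tested. Its annotated span lies inside the read-through gene CORO7-PAM16, which had 0 counts in each library.

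Of the 4 matrix folding genes 1 rose, 0 fell and 3 did not pass, where 8.64% of all genes were called higher and 6.5% lower. HSPD1 (Hsp60, ENSG00000144381, chromosome 2, positions 197486584 to 197500274) was at 1194, 1142 and 1204 CPM in WT and 2059, 1530.3 and 1670.4 CPM in replicates 1 to 3 labelled knockout, without overlap. The log2 fold change was 0.57 ± 0.15 (edgeR adjusted p = 0.0452), and 0.45 without replicate 1 (edgeR adjusted p = 9.13e-08). The call was lost without any 1 WT library (edgeR adjusted p 0.178 to 0.187), without replicate 3 labelled knockout (0.0954) and with no filter on low counts (0.0531). HSPE1 (Hsp10), the lid of the same folding chamber, was at 7.87, 10.5 and 10.4 CPM in WT and 10.6, 18.5 and 12.7 CPM in knockout-labelled libraries (0.55 ± 0.25, edgeR adjusted p = 0.178). The whole span of HSPE1 lies inside the read-through gene HSPE1-MOB4, which had 0 counts in each library, and reads that HTSeq assigns to more than 1 gene are set aside as ambiguous, so the HSPE1 counts are uncertain. The HSPD1 to HSPE1 count ratio overlapped between the groups (log2 difference 0.042, exact permutation p = 1). TRAP1, an Hsp90 of the matrix, had a log2 fold change of 0.16 ± 0.14 over all libraries, and the J-protein DNAJA3 of -0.32 ± 0.29. CLPB, a disaggregase that keeps intermembrane space proteins soluble, was at 67.3, 71.3 and 71.9 CPM in WT and 137, 95.2 and 92.9 CPM in knockout-labelled libraries, without overlap (0.63 ± 0.18, edgeR adjusted p = 0.0597), and was called without replicate 1 labelled knockout (0.43, edgeR adjusted p = 3.96e-05).

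HSPD1 and HSPE1 lie head to head and start within the same stretch of chromosome 2, so 204 bases of the first HSPD1 window (chr2:197500225-197500524, minus strand) are the reverse complement of the HSPE1 window. The HSPE1 window (chr2:197500129-197500428, plus strand) and the window of the second annotated HSPD1 start (chr2:197499791-197500090, minus strand) are shown, with motif matches in capitals.
HSPE1: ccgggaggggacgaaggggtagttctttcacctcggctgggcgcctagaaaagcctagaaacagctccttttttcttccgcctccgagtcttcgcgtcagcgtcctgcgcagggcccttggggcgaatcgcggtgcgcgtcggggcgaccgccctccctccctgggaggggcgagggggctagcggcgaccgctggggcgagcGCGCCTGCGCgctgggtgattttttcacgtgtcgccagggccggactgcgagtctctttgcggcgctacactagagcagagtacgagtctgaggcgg
HSPD1: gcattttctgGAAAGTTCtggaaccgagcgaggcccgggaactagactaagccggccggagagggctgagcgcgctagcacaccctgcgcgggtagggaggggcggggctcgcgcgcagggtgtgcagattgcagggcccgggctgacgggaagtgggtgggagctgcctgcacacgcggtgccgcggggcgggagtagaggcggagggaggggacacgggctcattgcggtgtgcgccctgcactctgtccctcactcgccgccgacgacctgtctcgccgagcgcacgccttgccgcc
The shared stretch holds 1 match to the NRF1 core, at positions 204 to 213 of the HSPE1 window. The second HSPD1 window holds, at positions 11 to 18, the letters of paired heat shock element units (GAANNTTC), which no other of the 52 member windows held and 5.67% of protein-coding windows hold. HSF1, the factor known to bind such elements, had 0 to 5 counts per library and was not tested. With the counting options not stated, such low counts do not show that HSF1, or TOMM6 and TIMM22 above, lacked transcripts.

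Presequence removal and peptide clearance had 0 of 4 genes called by edgeR over all libraries, 0 at an unadjusted p under 0.05, and 0 by DESeq2. Of all genes, edgeR called 15.1%, and 18.2% were higher and 15% lower at the unadjusted p. DESeq2 called 13.4% of all genes higher and 10.7% lower. The subunits of the matrix processing peptidase were PMPCA, at 154, 135 and 137 CPM in WT and 83.9, 138 and 129 CPM in knockout-labelled libraries, and PMPCB, at 94.02, 92.95 and 91.5 CPM in WT and 78.5, 75.99 and 78.4 CPM. PMPCB lay lower in each knockout-labelled library with little spread (-0.26 ± 0.12, edgeR adjusted p = 0.178), and without replicate 1 it was called lower (-0.26, edgeR adjusted p = 0.00592). MIPEP, which trims an octapeptide from some imported proteins, was at 23.8, 21.5 and 19.2 CPM in WT and 19.3, 15.5 and 12.7 CPM in knockout-labelled libraries. It had the smallest p of this group (-0.44 ± 0.20, edgeR adjusted p = 0.165) and was called lower without replicate 1 labelled knockout (-0.60, edgeR adjusted p = 0.000608). PITRM1, which degrades cleaved presequences, was at 91.6, 98.4 and 100.05 CPM in WT and 137, 104 and 106 CPM in knockout-labelled libraries (0.26 ± 0.16).

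The catalytic subunits of the inner membrane peptidase, which cuts sorting signals on the intermembrane space side, lay on opposite sides of WT. IMMP1L was at 10.8, 11.05 and 10.1 CPM in WT and 27.1, 12.4 and 14.2 CPM in knockout-labelled libraries (0.75 ± 0.30, edgeR adjusted p = 0.135). IMMP2L was at 4.68, 4.93 and 5.21 CPM in WT and 1.33, 2.85 and 2.71 CPM (-1.09 ± 0.32, edgeR adjusted p = 0.0606), from 72, 83 and 85 counts in WT and 18, 47 and 45 counts in knockout-labelled libraries. Neither overlapped between the groups, and replicate 1 was the farthest from WT for both. IMMP2L was called lower without that library (-0.82, edgeR adjusted p = 0.00886), while IMMP1L fell to 0.33 and did not pass (edgeR adjusted p = 0.0690). The IMMP1L to IMMP2L count ratio was 2.31, 2.24 and 1.94 in WT and 20.4, 4.36 and 5.27 in knockout-labelled libraries, 3.60-fold higher (exact permutation p = 0.1, adjusted p = 0.267), with a log2 difference of 1.85 over all libraries and 1.15 without replicate 1.

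**Figure D3:**
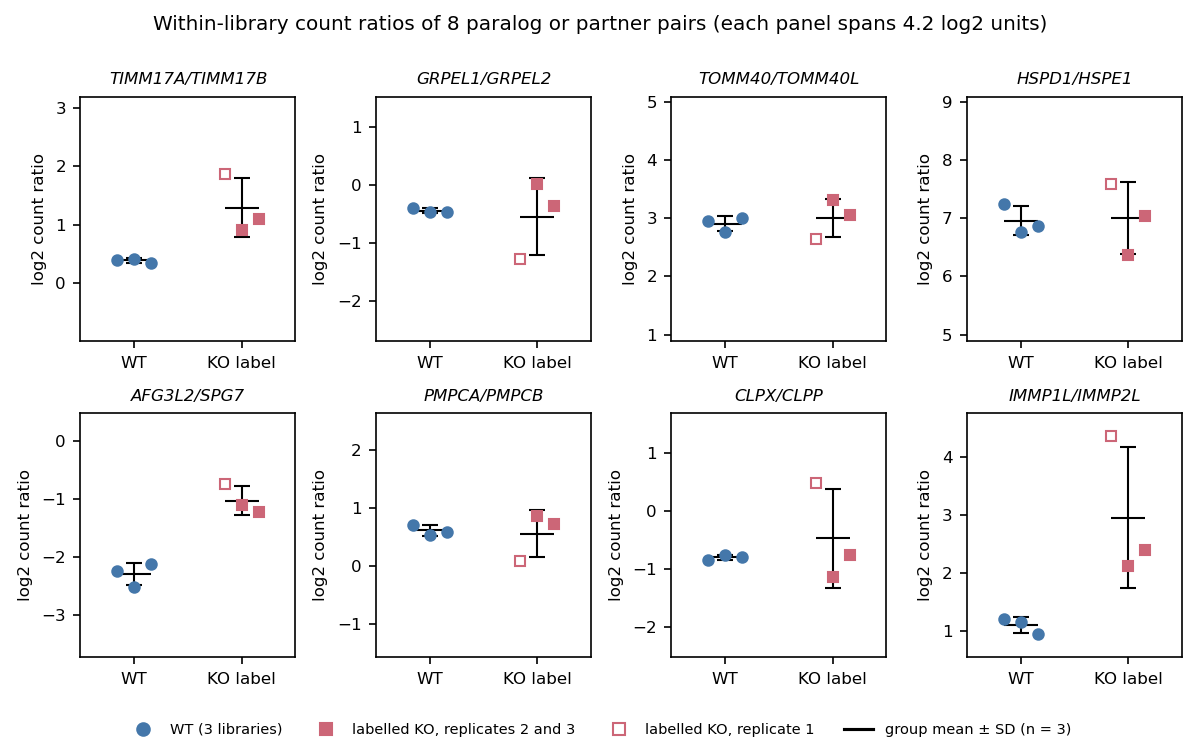
Log2 count ratio (y axes, all of the same span) of 8 pairs of paralogs or partners in each library, with the group mean and SD. The ratios AFG3L2/SPG7, TIMM17A/TIMM17B and IMMP1L/IMMP2L do not overlap between WT and the knockout-labelled libraries, and the other 5 do. Of all tested genes taken singly, 47.6% do not overlap, and the share for other gene pairs was not computed.

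The 5 remaining ratios overlapped between the groups, with two-sided exact permutation p of 0.7 to 1. Their log2 differences were -0.10 for GRPEL1 to GRPEL2, 0.097 for TOMM40 to TOMM40L, 0.042 for HSPD1 to HSPE1, -0.055 for PMPCA to PMPCB and 0.33 for CLPX to CLPP. In GRPEL1/GRPEL2, TOMM40/TOMM40L and PMPCA/PMPCB replicate 1 labelled knockout lay below each WT library and replicates 2 and 3 above.

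Summed by group, without a test, the matrix folding genes stood at 1365, 1312 and 1378 CPM in WT and 2226, 1749 and 1862 CPM in replicates 1 to 3 labelled knockout, a sum made mostly of HSPD1. The TOM complex stood at 1141, 1087 and 1115 CPM in WT and 2138, 1459 and 1528 CPM in knockout-labelled libraries. That sum was made mostly of TOMM20, and the median log2 fold change of the 8 tested TOM genes was 0.036. The quality control proteases summed to 608, 604 and 610.1 CPM in WT and 620.3, 599 and 577 CPM, and the TIM23 complex to 404, 383 and 389 CPM in WT and 341, 429 and 421 CPM. By compartment, 1 of 9 tested outer membrane genes, 1 of 10 matrix genes and 1 of 14 inner membrane genes rose, near the 8.64% of all genes called higher. Of the 8 intermembrane space genes 0 passed edgeR, 1 was higher at an unadjusted p under 0.05 (CLPB) and 1 was called by DESeq2 (CLPB). Of all genes, edgeR called 15.1%, 18.2% were higher at the unadjusted p, and DESeq2 called 13.4% higher.

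Within WT the members varied little, with a median coefficient of variation of 4.56% over the 47 tested, the largest being 75.5% for the sparsely counted TOMM20L. Within knockout-labelled libraries the median was 22.9%. Replicate 1 was below both others in 27 members and above both in 17. In 8 members it was less than 0.5 times the mean of replicates 2 and 3. Those were TOMM7, TIMM10, TIMM13, TIMM29, TIMM17B, TIMM8B, TOMM40 and IMMP2L. The log2 ratio of replicate 1 to that mean rose with the genomic span of the gene (Pearson's r = 0.473, Spearman's rho = 0.511 over 47 members, which share the same 3 libraries). Its median was -0.58 over the 24 genes with spans up to 16949 bases and 0.35 over the 23 longer ones. The part of transcript length or RNA quality in these values was not tested. The median distance from WT, taken without sign on the log2 scale, was 0.61 in replicate 1 and 0.19 for the mean of replicates 2 and 3.

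**Figure D4:**
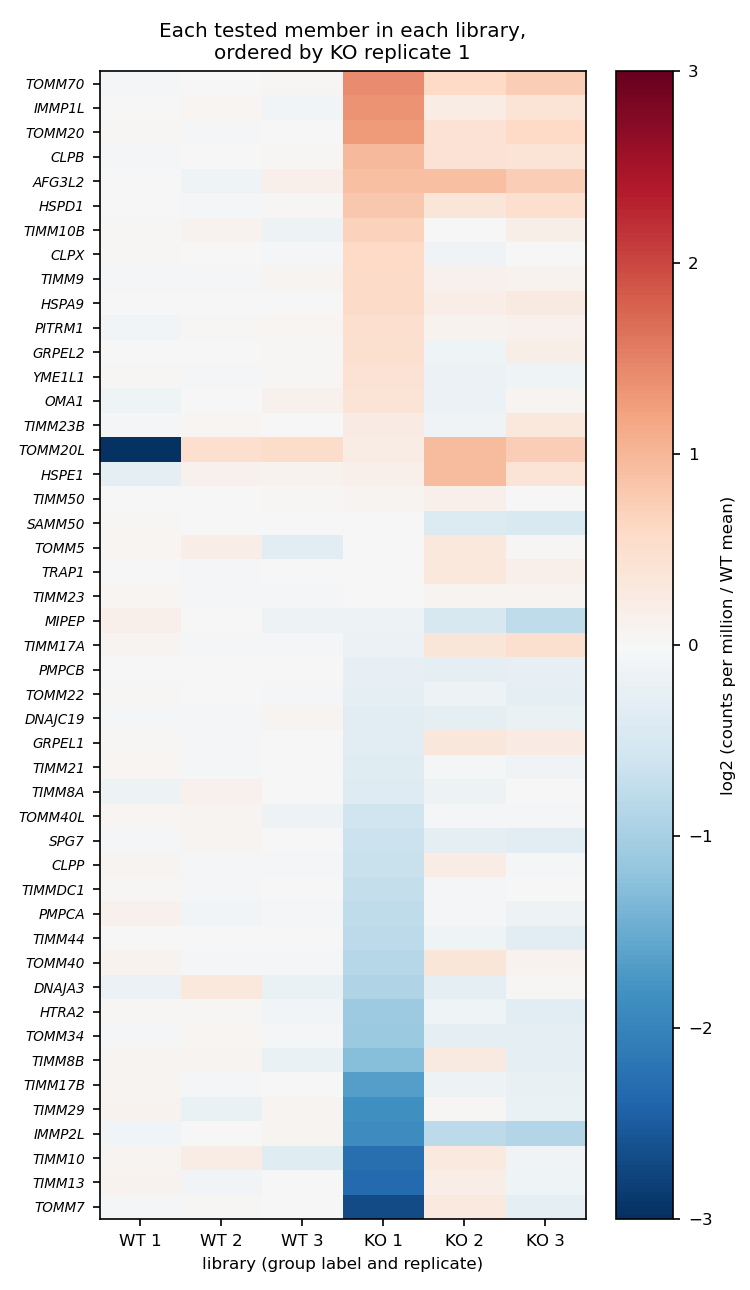
Log2 ratio of the level in each library (columns) to the WT mean for the 47 tested members (rows, ordered by replicate 1 labelled knockout), red above and blue below WT. AFG3L2 has like values in all 3 knockout-labelled libraries, whereas TOMM7, TIMM13, TIMM10 and TIMM29 are far lower in replicate 1 than in the other libraries. Colours end at -3 and 3.

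Genes of the same pathway outside the name rule were taken from a fixed list of 22, of which 19 were tested, 0 rose, 1 fell (LONP1) and 18 did not pass edgeR. At an unadjusted p under 0.05 there were 3 higher and 4 lower, beside 18.2% and 15% of all genes. Without replicate 1 labelled knockout 5 were called higher and 5 lower, beside 22.3% and 21.7% of all genes. The intermembrane space oxidoreductase CHCHD4 was at 23.3, 23.2 and 26.2 CPM in WT and 27.95, 32.1 and 33.4 CPM in knockout-labelled libraries (0.36 ± 0.15), and its partner GFER at 12.3, 13.01 and 14.2 CPM in WT and 1.55, 10.6 and 5.53 CPM (-1.15 ± 0.55), neither past the threshold. When replicate 1 labelled knockout was left out, edgeR called CHCHD4 higher (0.44, adjusted p = 0.000984) and GFER lower (-0.70, adjusted p = 0.00474). Of 9 cytosolic chaperones that hand precursors to mitochondria, 2 rose, 0 fell and 7 did not pass, beside 8.64% of all genes called higher and 6.5% lower. HSPA8, the constitutive Hsp70 that docks on TOMM70, was at 583, 574 and 601 CPM in WT and 1919.6, 961 and 1041 CPM in knockout-labelled libraries (1.16 ± 0.27, edgeR adjusted p = 0.0306), and 0.78 without replicate 1. HSP90AA1, the inducible cytosolic Hsp90, was at 2683, 2575 and 2684 CPM in WT and 6392, 4111 and 4465 CPM (0.91 ± 0.19, edgeR adjusted p = 0.0215), and 0.70 without replicate 1. Its constitutive paralog HSP90AB1 had a log2 fold change of -0.026 ± 0.12. Both calls were lost when any 1 WT library (edgeR adjusted p 0.107 to 0.129) or replicate 3 labelled knockout (0.0528 for HSPA8 and 0.0516 for HSP90AA1) was left out.

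The transcription factors tied to mitochondrial stress differed in sign, and are named here after their values were seen, as are NRF1, GABPA, CHCHD4, GFER and HSP90AB1. ATF5 was at 7.15, 5.999 and 6.07 CPM in WT and 8.65, 12.1 and 8.48 CPM in knockout-labelled libraries (0.60 ± 0.22, edgeR adjusted p = 0.105). ATF4, its relative in the integrated stress response, was at 866, 838 and 859.9 CPM in WT and 267, 581 and 571 CPM (-0.85 ± 0.29, edgeR adjusted p = 0.0860). Neither passed over all 6 libraries in edgeR although neither overlapped between the groups, while DESeq2 called ATF4 lower (DESeq2 adjusted p = 0.0307). Leaving out replicate 1 labelled knockout, edgeR called ATF5 higher (0.69, adjusted p = 0.00399) and ATF4 lower (-0.56, adjusted p = 4.4e-09). DDIT3 (CHOP) overlapped (-0.26 ± 0.53).

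Reads shared with other genes limit some of these values. The spans of 17 members overlap another protein-coding gene. Of the processed copies, 18 HSPD1 pseudogenes together had 174, 168 and 175 counts in WT and 334, 272 and 220 in knockout-labelled libraries, 0.903% and 1.02% of the HSPD1 counts of each group. The 4 TOMM20 pseudogenes had 0.525% and 0.605% of the TOMM20 counts, and the 4 TOMM40 pseudogenes 7.92% and 4.16% of the TOMM40 counts. The 26 HSPE1 pseudogenes had 15.2% and 20.3% of the HSPE1 counts. Reads that match several copies equally well were not separated here.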

How the data were processed

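The deposited gene files hold counts, raw whole numbers per gene and library. GRCh38, HISAT2 2.2.1, SAMtools 1.3.1, HTSeq 0.12.4, bedtools 2.30.0, FastQC 0.11.9 and DESeq2 were used, per the submitters' processing notes, which give no order or counting options. Reads in no feature (8.75% to 15.9% of counted reads) or ambiguous (9.74% to 12.5%) entered neither library sizes nor tests. The 15.9% and the 9.74% were both replicate 1 labelled knockout. The other libraries lay at 8.75% to 10.8% and 11.6% to 12.5%. Of 62348 identifiers 61399 were named from a table of gene symbols, and coordinates, biotypes and start windows came from RefSeq (GRCh38.p14).

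The test of counts was that of edgeR 4.0.16 under R 4.3.3 (TMM scaling, filterByExpr defaults, quasi-likelihood test, group as the only term, all 6 libraries, Benjamini-Hochberg over all tested genes at 0.05). Count ratios of 8 pairs used two-sided exact permutation tests over libraries. Alternatives were DESeq2 1.42.0, limma-voom (limma 3.58.1), leaving out each library, a block by replicate number, and other scalings and filters. The script was tested on simulated data in which no library stood apart, so that test does not cover a library such as replicate 1 labelled knockout. No libraries of the same group were duplicates: counts of each pair within a group differed by at least 2.58 times the chi-square expected from sampling.

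The members, lists, pairs and tests were chosen with earlier results of these data known. Each member may be named. Full values were planned for members called over all 6 libraries and, in groups with none, for the one with the smallest p. They are also given for members outside that plan, among them SPG7, HTRA2, TOMM20, TOMM22, TIMM44, DNAJC19 and PMPCB. The mitochondrial coverage files were not used here.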

Additional observations from a re-analysis of the deposited data

How the results depend on the processing

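The count of members called higher (3) was 5 with upper quartile scaling and 5 with DESeq2, and ranged from 0 to 11 on leaving out 1 library, with 11 without replicate 1 labelled knockout, 1 without replicate 3 labelled knockout and 0 without any 1 WT library. The count called lower (0) was 1 with DESeq2 and 0 to 8 on leaving out 1 library, the 8 being without replicate 1 labelled knockout. With a replicate block 0 members were called higher, the edgeR adjusted p being 0.0594 for AFG3L2, 0.0732 for TOMM70 and 0.114 for HSPD1. The labels give the replicate numbers alone and do not say whether they mark batches. Deviations of same-numbered libraries from their group means correlated at -0.058, -0.029 and 0.0022. Replicate 1 labelled knockout, which stood apart, weighs on these values, so they do not decide whether the libraries are paired. The block gave a p of 0.25, the smallest possible, for the ratios AFG3L2/SPG7, TIMM17A/TIMM17B and IMMP1L/IMMP2L. The median log2 fold change of the members (-0.048) ranged from -0.17 to 0.041 on leaving out 1 library, and the farthest value was without replicate 2 labelled knockout.

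Signs turned for some uncalled values when 1 library was left out. The ranges of log2 fold change were -0.30 to 0.24 for TOMM40, -0.022 to 0.22 for TOMM5, -1.02 to 0.033 for TOMM7, -0.69 to 0.031 for TIMM8B, -0.79 to 0.12 for TIMM10, -0.84 to 0.044 for TIMM13, -0.015 to 0.30 for GRPEL1, -0.32 to 0.11 for CLPP, -0.046 to 0.34 for CLPX, -0.14 to 0.18 for YME1L1 and -0.023 to 0.26 for OMA1. For log2 count ratios they were -0.38 to 0.26 for GRPEL1/GRPEL2, -0.054 to 0.28 for TOMM40/TOMM40L, -0.25 to 0.36 for HSPD1/HSPE1, -0.21 to 0.18 for PMPCA/PMPCB and -0.15 to 0.66 for CLPX/CLPP. Of these members TOMM40 and GRPEL1 were called higher without replicate 1 labelled knockout. The cause was not tested. limma-voom called 3 members higher and 0 lower. TOMM6, TIMM22 and PAM16 had too few counts to be tested, and TOMM20L had few. The cause of these low counts was not tested.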
